A study of Mus musculus with 15 samples.

Results

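The neighbours of *Tert* on mouse chromosome 13 described here are *Clptm1l*, *Slc6a19*, *Slc12a7*, *Nkd2*, *Trip13*, *Brd9*, *Zdhhc11*, *Tppp* and *Cep72*. They were chosen by symbol, as genes within about 0.5 Mb of *Tert* in the mm10 build, and make up 9 of the 32544 genes in the count table. The rule uses position and no measured value. All 9 were found in the table, and 8 passed the filter on low counts and were tested. *Zdhhc11* did not pass it.

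RNA of colon tissue was sequenced from mice aged 8 to 12 weeks. The KO group lacks *Tert* (labelled TERT-/-), the VAA group carries an engineered form of TERT without enzymatic activity, and the WT group is labelled TERT+/+. Mice of each genotype either drank 3% dextran sulfate sodium (DSS), a compound that injures the colon lining, for 4 days and then plain water for 4 days, or were left untreated. Each genotype had 3 DSS and 2 untreated libraries, 15 in all, and DSS tissue was taken on day 8. The labels do not say whether the KO is one founder line, what DNA was left or inserted at either allele, whether littermates were compared, or whether animals were pooled. Nor do they say that replicates are separate animals, and the p-values describe only how far these libraries spread, which may be technical in most groups. The 2 untreated KO libraries differed in sex by *Ddx3y* (9 and 868 counts), as did the 2 untreated WT libraries (20 and 914). Neither pair thus came from the same animal. The comparison of flanking genes between genotypes addresses whether the engineered alleles moved expression beside *Tert*, apart from the effect of DSS.

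*Tert* encodes the reverse transcriptase of telomerase, which extends the repeats at chromosome ends and is low in most adult tissues. An engineered allele can act on the genes beside it, through inserted or removed DNA, and it is inherited together with the stretch of chromosome on which it was made. Flanking genes are therefore a usual check of such lines. The neighbours have unrelated roles. *Trip13* (an ATPase that remodels HORMA proteins such as Mad2 in the spindle checkpoint), *Cep72* (a centrosome and centriolar satellite protein) and *Tppp* (a microtubule-bundling protein best known from oligodendrocytes) belong to the microtubule and cell division machinery. *Slc12a7* (the potassium chloride cotransporter KCC4) and *Slc6a19* (the neutral amino acid transporter of the small intestinal and renal brush border) are plasma membrane transporters. *Nkd2* binds Dishevelled and restrains Wnt signalling, *Brd9* is the bromodomain subunit of the noncanonical BAF chromatin remodelling complex, *Clptm1l* is an endoplasmic reticulum lipid scramblase that serves GPI anchor synthesis, and *Zdhhc11* belongs to the DHHC palmitoyltransferase family.

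By GENCODE annotation of mm10, *Tert* lies on the plus strand at chr13:73626911-73649843. *Clptm1l* is the one member before it, 6.3 kb from its start, at chr13:73604006-73620605 on the plus strand. The other members follow it. *Slc6a19* (chr13:73679745-73704865, minus strand) is 29.9 kb away and *Slc12a7* (chr13:73733094-73816754, plus strand) 83.3 kb. *Nkd2* (chr13:73818534-73847631, minus strand) is 168.7 kb away, *Trip13* (chr13:73911347-73937784, minus strand) 261.5 kb and *Brd9* (chr13:73937811-73960895, plus strand) 288.0 kb. *Zdhhc11* (chr13:73963851-73992990, plus strand) is 314.0 kb away, *Tppp* (chr13:74009407-74035753, plus strand) 359.6 kb and *Cep72* (chr13:74036500-74062299, minus strand) 386.7 kb. A further 11 annotated genes of the count table lie within 0.5 Mb of *Tert*, and 6 of them were tested.

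RefSeq promoter windows on GRCm38.p6, from 250 bases before to 50 bases after a gene's start, were at hand for 7 of the 9 members. The windows used for *Slc12a7* and *Slc6a19* sit at RefSeq starts (73763660 and 73692636) that lie inside the longer gene spans of GENCODE given above, and not at those spans' outer ends. They are shown for the genes on which the results turn. *Trip13* and *Brd9* run away from each other from RefSeq starts with 43 bases between them (26 by GENCODE), and the 43 bases are in capitals in the *Brd9* window (chr13:73937561-73937860, plus strand). In the windows of *Tppp* (chr13:74009169-74009468, plus strand) and *Slc12a7* (chr13:73763410-73763709, plus strand), the 2 members that differed between KO and WT under DSS, the capitals mark GGGCGG or its complement, the GC box.
Brd9: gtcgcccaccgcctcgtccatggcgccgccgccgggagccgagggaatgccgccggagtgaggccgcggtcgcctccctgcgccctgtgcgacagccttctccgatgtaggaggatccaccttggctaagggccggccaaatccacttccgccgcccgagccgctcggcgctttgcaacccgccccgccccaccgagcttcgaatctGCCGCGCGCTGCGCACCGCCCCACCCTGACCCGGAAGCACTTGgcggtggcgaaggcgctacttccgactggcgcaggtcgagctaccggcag
Tppp: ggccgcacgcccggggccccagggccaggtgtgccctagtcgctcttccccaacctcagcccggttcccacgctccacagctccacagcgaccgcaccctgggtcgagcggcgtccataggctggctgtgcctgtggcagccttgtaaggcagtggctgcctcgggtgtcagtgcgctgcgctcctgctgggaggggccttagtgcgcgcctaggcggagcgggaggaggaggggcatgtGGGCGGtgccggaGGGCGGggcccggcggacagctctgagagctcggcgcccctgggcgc
Slc12a7: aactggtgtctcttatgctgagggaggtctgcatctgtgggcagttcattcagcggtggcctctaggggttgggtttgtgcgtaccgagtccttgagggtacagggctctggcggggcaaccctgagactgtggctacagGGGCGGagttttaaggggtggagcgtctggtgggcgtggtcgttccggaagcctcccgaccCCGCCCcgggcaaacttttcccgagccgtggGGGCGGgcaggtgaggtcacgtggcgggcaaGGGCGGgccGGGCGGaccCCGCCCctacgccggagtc

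The GC box, searched on both strands, was found 6 times in the *Slc12a7* window, 4 times each in those of *Trip13*, *Brd9* and *Cep72*, and 2 times in that of *Tppp*. It was absent from the windows of *Nkd2* and *Slc6a19*, and 35.7% of all 32851 RefSeq windows held it. TATAAA was found in none of the 7 windows and in 13.6% of all windows. The windows of *Brd9* and *Trip13* held 40 and 34 CpG dinucleotides, those of *Tppp* and *Nkd2* 26 each, that of *Slc12a7* 23, that of *Cep72* 21 and that of *Slc6a19* 4, against a median of 7 over all windows. The window at the internal start of *Slc6a19* was thus the one below that median, and the outer end of the gene was not searched. These matches describe the sequence and show no binding.

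Library totals ran from 10.56 to 17.54 M counts. Levels are given as scaled CPM, the count per M counts of the library after scaling by trimmed mean of M values, and they are not divided by gene length, so they compare libraries and not genes. Fold changes are log2, with the standard error of an edgeR quasi-likelihood fit over all 15 libraries. A gene counts as called where its p, adjusted by Benjamini and Hochberg over the 17477 genes tested, was under 0.05. Epithelial keratin and adhesion genes were abundant in every library and the 9 small intestinal markers summed to 12.3 to 41.1 CPM. Among these 9, *Apoa1* and *Apoa4* had 0 to 2 counts in any library, *Fabp6* 14 to 398 and *Enpep* 61 to 208. The third VAA library under DSS stood apart from the other 8 DSS libraries. The summed level of 8 dividing-cell markers was 331 CPM in it and 949 to 1677 CPM in the others, and that of 8 enteric neuron and glia markers was 135 CPM in it and 7.44 to 33.4 CPM in the others. The second KO and the second WT untreated libraries were male by *Ddx3y*, with 868 and 914 counts against 5 to 20 counts in the other 13 libraries.

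*Tert* itself followed the labels. It had 0, 0 and 1 counts in the KO libraries under DSS and 1 and 1 count in the untreated KO libraries. The VAA libraries had 29, 12 and 7 counts under DSS and 25 and 15 counts untreated. The WT libraries had 26, 36 and 23 counts under DSS and 37 and 40 counts untreated, so no KO library overlapped a VAA or WT library. *Tert* was called lower in KO than in WT averaged over treatments (edgeR adjusted p = 0.00216), with an adjusted p of 0.059 without the first and 0.052 without the second untreated KO library. VAA and WT differed in *Tert* by -0.84 ± 0.34 on the log2 scale (edgeR adjusted p = 0.937).

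Averaged over treatments, none of the 8 tested neighbours was called between KO and WT in edgeR, where 0.0229% of all genes were called, 0.00572% higher and 0.0172% lower. Their log2 differences ran from -0.42 for *Trip13* to 0.99 for *Tppp*, and the median size of the difference was 0.11 for the neighbours and 0.16 for all genes. At an unadjusted p under 0.05 there were 2 of the 8, against 1976 genes in all, or 11.3%. The 2 were *Slc12a7* (0.40 ± 0.10, edgeR adjusted p = 0.151) and *Tppp* (0.99 ± 0.29, edgeR adjusted p = 0.223). DESeq2 called both, with adjusted p of 0.0191 and 0.0351, among 308 genes in all. Each average joins a DSS and an untreated difference. For *Tppp* these were 2.17 ± 0.39 under DSS and -0.20 ± 0.44 untreated, and for *Slc12a7* 0.64 ± 0.13 and 0.17 ± 0.15. *Slc12a7* was also called in edgeR without the third VAA library under DSS, which entered only the estimate of spread (0.40, adjusted p = 0.0384). Its difference was 0.33 without both male libraries, alone or together with that VAA library, and was called in neither fit. *Clptm1l*, the nearest neighbour, differed by -0.10 ± 0.08, with a 95% interval from -0.27 to 0.08, and *Brd9* by -0.00 ± 0.11, with an interval from -0.23 to 0.23.

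In VAA against WT averaged over treatments none of the 8 neighbours was called in edgeR, DESeq2 or limma, and none had an unadjusted p under 0.05. Over all genes edgeR called 0%, with 586 genes at an unadjusted p under 0.05 and 6 called by DESeq2. The neighbours' differences ran from -0.35 for *Trip13* to 0.39 for *Nkd2*. The tightest interval was that of *Clptm1l*, from -0.16 to 0.18, and the interval of *Slc12a7* ran from -0.20 to 0.24. The 95% interval of *Nkd2* reached 1.05, so a difference of about that size was within the error for the less abundant neighbours.

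Between KO and VAA averaged over treatments, none of the 8 neighbours was called, against 1.44% of all genes, 0.772% higher and 0.669% lower. *Tppp* differed by 1.19 ± 0.30 (edgeR adjusted p = 0.0657) and *Slc12a7* by 0.38 ± 0.10 (edgeR adjusted p = 0.074). These were the 2 of the 8 with an unadjusted p under 0.05, against 3008 genes in all, or 17.2%. DESeq2 called both, with adjusted p of 0.00267 and 0.0149. Without the second VAA library under DSS edgeR called both as well, *Tppp* at 1.27 (adjusted p = 0.0362) and *Slc12a7* at 0.41 (adjusted p = 0.0357).

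The comparison of KO with WT was then split by treatment. Under DSS 2 of the 8 neighbours were called higher in KO, *Tppp* and *Slc12a7*, and none lower, against 5.67% of all genes called, 3.21% higher and 2.46% lower. The median size of the log2 difference was 0.28 for the neighbours and 0.26 for all genes. In untreated colon none of the 8 neighbours was called or had an unadjusted p under 0.05, and DESeq2 and limma called none. Over all genes edgeR called 0% in untreated colon, with 352 genes at an unadjusted p under 0.05 and 9 called by DESeq2. VAA against WT gave no called neighbour under DSS, against 0.00572% of all genes, nor untreated, against 0% of all genes (233 genes at an unadjusted p under 0.05 and 2 called by DESeq2). In both of these comparisons no neighbour had an unadjusted p under 0.05 and neither DESeq2 nor limma called one. Whether the KO difference itself changed with DSS was tested as an interaction, in which edgeR called no neighbour and 0% of all genes. There, 3 neighbours and 1736 genes in all had an unadjusted p under 0.05, and DESeq2 called 1 neighbour, *Tppp*, and 136 genes in all. In the interaction of VAA with DSS no neighbour was called by edgeR, DESeq2 or limma, or had an unadjusted p under 0.05, and edgeR called 0% of all genes (1259 at an unadjusted p under 0.05, 0 called by DESeq2).

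**Figure D1:**
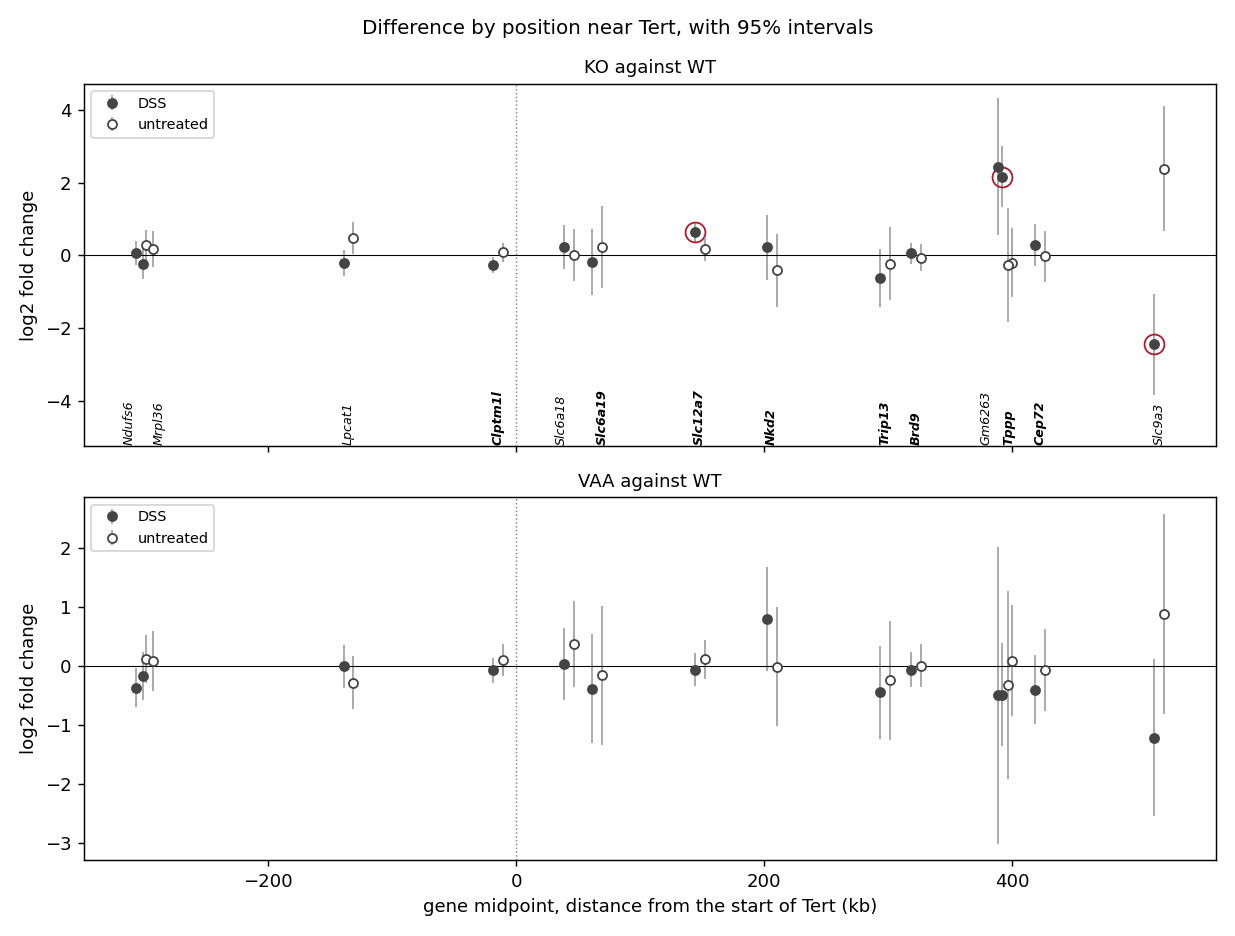
Log2 fold change of KO against WT (upper) and VAA against WT (lower) for the 14 tested genes within 0.5 Mb of *Tert*, by distance of the gene's midpoint from the start of *Tert* in kb. Filled points are DSS, open points untreated, bars are 95% intervals, red rings mark called genes and bold names mark the 8 chosen neighbours that were tested. The 3 rings are *Slc12a7* (0.64), *Tppp* (2.17) and *Slc9a3* (-2.45) in KO against WT under DSS, and no point of the lower panel is ringed.

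Most of the neighbours changed with DSS. In DSS against untreated averaged over genotypes, 2 of the 8 tested neighbours were called higher and 4 lower, where 42.6% of all genes were called, 22.5% higher and 20% lower. The 2 higher were *Clptm1l* and *Trip13*, and the 4 lower were *Tppp*, *Nkd2*, *Slc12a7* and *Cep72*. *Brd9* and *Slc6a19* did not pass the test. The median size of the log2 difference was 0.65 for the neighbours and 0.32 for all genes. In the same comparison all 7 smooth muscle markers were called lower, all 6 leukocyte markers higher and 6 of 8 dividing-cell markers higher. In bulk tissue a smaller number of cells of a type and less RNA per cell cannot be told apart. The part of these cell types in the neighbours' changes was not tested. Leaving out both male libraries, alone or together with the third VAA library under DSS, gave 6 called neighbours in each fit.

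**Figure D2:**
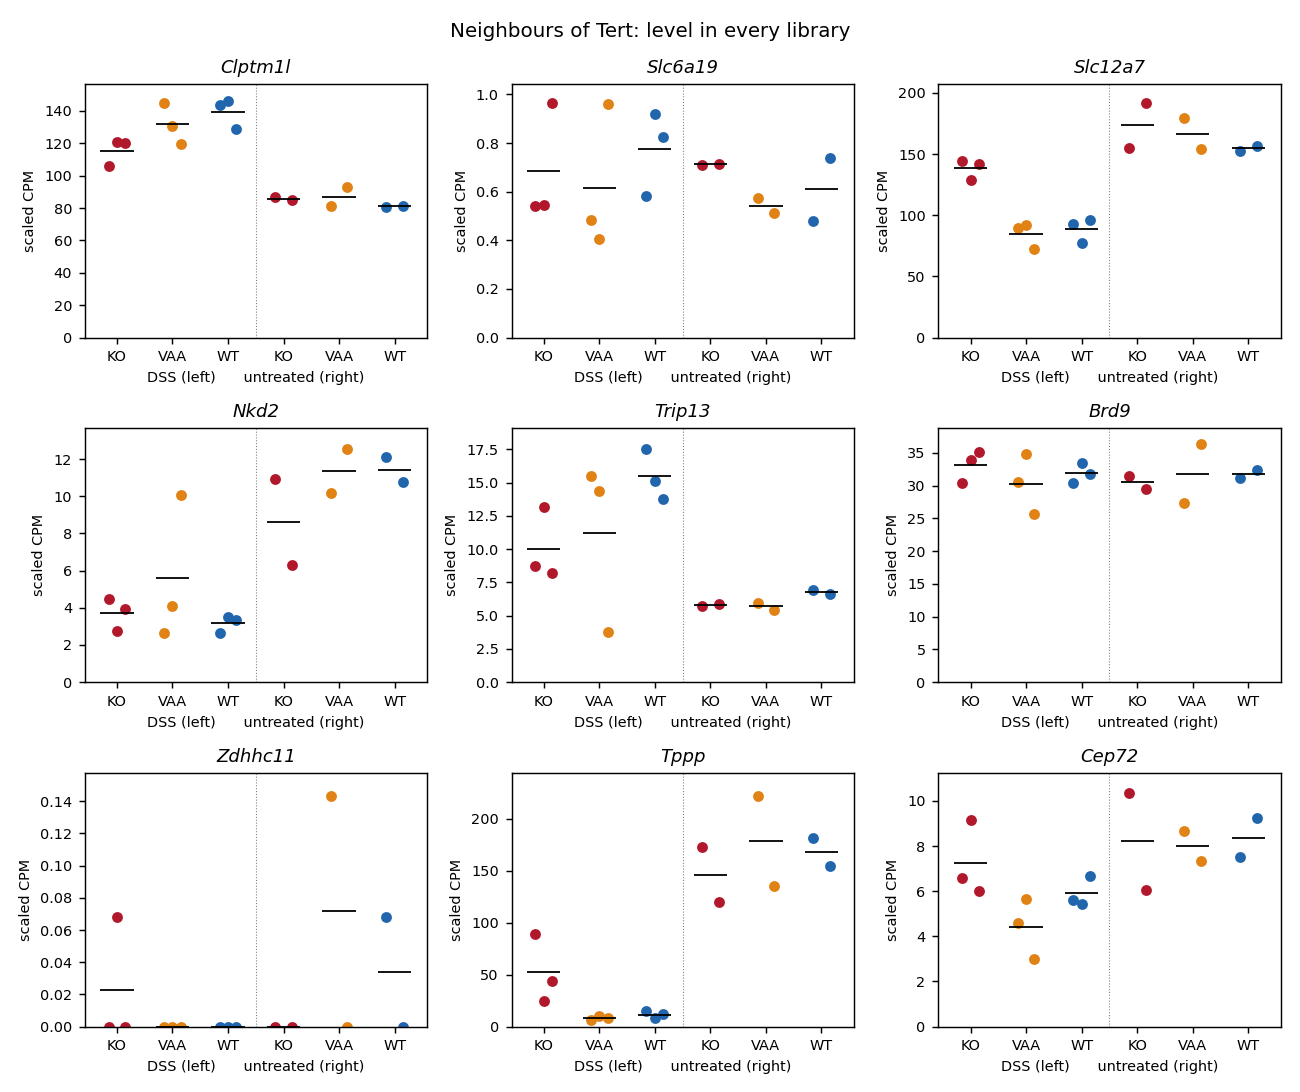
Scaled CPM of each neighbour in each of the 15 libraries, DSS on the left and untreated on the right of every panel, with KO in red, VAA in orange and WT in blue, and bars at the group means. In the *Slc12a7* and *Tppp* panels the 3 KO libraries under DSS lie above the 3 WT libraries under DSS (129 to 144 against 77.3 to 96.2 CPM, and 24.97 to 88.8 against 8.05 to 15.02 CPM).

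*Tppp* had the largest changes of the neighbours. The KO libraries under DSS had 88.8, 24.97 and 43.8 CPM, the VAA libraries 6.86, 10.1 and 7.87 CPM, and the WT libraries 15.02, 8.05 and 11.8 CPM. Untreated colon had 173 and 120 CPM in KO, 222 and 135 CPM in VAA, and 182 and 155 CPM in WT. All 9 DSS libraries were below all 6 untreated libraries, and under DSS the 3 KO libraries were above all 6 others. The fall under DSS was -3.25 ± 0.24, or 9.54-fold (edgeR adjusted p = 5.11e-07). The DSS mean was 0.359 of the untreated mean in KO, 0.0462 in VAA and 0.0691 in WT. KO exceeded WT under DSS by 2.17 ± 0.39, or 4.5-fold with a 95% interval from 2.51 to 8.09 (edgeR adjusted p = 0.01). Without the second WT library under DSS that call was lost (1.97, adjusted p = 0.0669). The interaction of KO with DSS was 2.37 ± 0.59, with an interval from 1.10 to 3.64, and did not pass in edgeR (adjusted p = 0.258), while DESeq2 gave it an adjusted p of 0.0128.

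The pseudogene *Gm6263* lies inside *Tppp* on the other strand. Under DSS it had 15, 13 and 9 counts in the KO libraries, 1, 4 and 0 in the VAA libraries and 2, 2 and 3 in the WT libraries. The difference between KO and WT under DSS was 2.44 ± 0.88 (edgeR adjusted p = 0.12). It was called in 5 of 23 other fits, with sex as a covariate (adjusted p = 0.0471), without the first or the second untreated KO library (0.0484 and 0.0462), and without both male libraries alone (0.0468) or with the third VAA library under DSS (0.0109). Strand use in the counting is not given in these sources, so reads of the pair may not be told apart. The paralog *Tppp3* was called in the same directions as *Tppp*, by -3.15 ± 0.26 in DSS against untreated (edgeR adjusted p = 9.97e-07) and by 1.90 ± 0.43 in KO against WT under DSS (edgeR adjusted p = 0.0235). The KO difference of *Tppp3*, named after its values were seen, was lost in 4 of the 24 other fits, those without the first, the second or the third WT library or the first KO library under DSS (adjusted p of 0.073, 0.112, 0.0596 and 0.108). Over all genes, 22.5% were called higher and 20% lower with DSS. Of 6 tested genes of the *Tppp* family and of myelinating glia, 1 was called higher and 3 lower. These included *Mbp*, a myelin protein (-0.48), and *Cnp*, a myelin-associated enzyme (0.63).

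Marker levels also differed between the DSS groups. In KO against WT under DSS, 5.67% of all genes were called, 3.21% higher and 2.46% lower, beside which the counts of called markers stand. The summed level of 10 colon epithelium markers was 12627 to 14962 CPM in KO, 8953 to 10990 CPM in VAA and 9947 to 10630 CPM in WT, with 2 of the 10 called higher in KO than in WT. The smooth muscle sum was 457 to 1539 CPM in KO, 522 to 1842 CPM in VAA and 424 to 744 CPM in WT. The neuron and glia sum was 7.44 to 12.3 CPM in KO, 24.2 to 135 CPM in VAA and 20.1 to 26.6 CPM in WT. The KO libraries thus had the highest epithelial sums and the lowest neuron and glia sums, with none of the 8 neuron and glia markers called between KO and WT. No marker of the epithelial list was at 0 in any library. The sum of 4 endothelial markers was 32.5 to 39.4 CPM in KO, 49.8 to 144 CPM in VAA and 40.2 to 53.3 CPM in WT, with none of the 4 called between KO and WT. The sum of 5 fibroblast markers was 665 to 963 CPM in KO, 1091 to 2709 CPM in VAA and 927 to 1519 CPM in WT. One of these, *Dcn*, was called lower in KO than in WT (-1.12 ± 0.25, edgeR adjusted p = 0.021), a call lost without the first or the second WT library or any one KO library under DSS (adjusted p from 0.0607 to 0.113). The small intestinal sum was 16.7 to 41.1 CPM in KO, 12.6 to 26.5 CPM in VAA and 12.3 to 14.3 CPM in WT. The one called of its 6 tested markers was *Fabp6*, a bile acid binding protein, higher in KO than in WT (3.16 ± 0.45, edgeR adjusted p = 0.00332). Under DSS the endothelial sum was thus lower and the small intestinal sum higher in all KO than in all WT libraries. The endothelial ranges nearly met, at 39.4 and 40.2 CPM, and 5 of the 6 tested small intestinal markers were not called. Beside smooth muscle sums of 1254, 457 and 1539 CPM, the KO libraries under DSS had 88.8, 24.97 and 43.8 CPM of *Tppp*. The VAA libraries, at 522, 886 and 1842 CPM, had 6.86, 10.1 and 7.87 CPM of *Tppp*. The WT libraries, at 744, 424 and 600 CPM, had 15.02, 8.05 and 11.8 CPM of *Tppp*. The part of these lists in the *Tppp* and *Slc12a7* differences was not tested.

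*Slc12a7* was lower with DSS in each genotype. The KO libraries under DSS had 144, 129 and 142 CPM, the VAA libraries 89.8, 92.0 and 72.5 CPM, and the WT libraries 92.9, 77.3 and 96.2 CPM. Untreated colon had 155 and 192 CPM in KO, 179 and 154 CPM in VAA, and 153 and 156 CPM in WT. The genotypes overlapped when untreated, and under DSS the KO libraries were above all others. The change with DSS was -0.70 ± 0.08, or 1.62-fold lower (edgeR adjusted p = 1.83e-05), and the DSS mean was 0.797 of the untreated mean in KO, 0.509 in VAA and 0.575 in WT. KO exceeded WT under DSS by 0.64 ± 0.13, or 1.56-fold (edgeR adjusted p = 0.0149). That call was lost without the second WT library (0.55, adjusted p = 0.0915), the first KO library (0.61, adjusted p = 0.062) or the third KO library (0.62, adjusted p = 0.0532) under DSS. The interaction of KO with DSS was 0.47 ± 0.20 (edgeR adjusted p = 0.469).

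Among 7 tested cation chloride cotransporters related to *Slc12a7*, 4 were called higher and 1 lower with DSS, against 22.5% and 20% of all genes. Among the 4 that rose were *Slc12a3*, a sodium chloride cotransporter (1.56 ± 0.45, edgeR adjusted p = 0.0128), and *Slc12a9* (0.36 ± 0.11, edgeR adjusted p = 0.0155). The fits that lost the call of *Slc12a3* included those with sex as a covariate (1.35, edgeR adjusted p = 0.0631) and without both male libraries (1.24). Those that lost *Slc12a9* included limma (0.29, adjusted p = 0.0604) and edgeR with sex as a covariate (0.36, adjusted p = 0.0513). The edgeR fit without the first untreated WT library also lost it (0.30, adjusted p = 0.0666). Between KO and WT under DSS, 1 of the 7 was called higher and none lower, against 3.21% and 2.46% of all genes.

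*Slc6a19* was near the floor of detection in this tissue, with 6 to 14 counts per library. It had 0.54, 0.55 and 0.97 CPM in the KO libraries under DSS, 0.48, 0.40 and 0.96 CPM in the VAA libraries and 0.58, 0.92 and 0.83 CPM in the WT libraries. Untreated, it had 0.71 and 0.71 CPM in KO, 0.57 and 0.51 CPM in VAA and 0.48 and 0.74 CPM in WT. KO and WT, VAA and WT, and DSS and untreated libraries overlapped in every pairing. The DSS difference was 0.14 ± 0.28 with an interval from -0.47 to 0.74, so smaller changes were not detectable at this depth. An antisense RNA, *Slc6a19os*, is annotated across *Slc6a19*, which the counting may not separate. Over all genes, 22.5% were called higher and 20% lower with DSS. Of 10 tested genes of neutral amino acid and peptide transport at the brush border, 1 was called higher and 4 lower. They included *Slc15a1*, a peptide transporter, which fell (-1.84 ± 0.17), and *Slc7a9*, a cystine transporter subunit, which rose (2.25 ± 0.37).

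*Nkd2* was lower in the DSS libraries of every genotype. The KO libraries under DSS had 4.50, 2.73 and 3.94 CPM, the VAA libraries 2.65, 4.11 and 10.1 CPM, and the WT libraries 2.63, 3.53 and 3.36 CPM. Untreated colon had 10.9 and 6.28 CPM in KO, 10.2 and 12.5 CPM in VAA, and 12.1 and 10.8 CPM in WT. The third VAA library under DSS was the one DSS library in the untreated range. Among DSS libraries it also had the highest neuron and glia (135 CPM), smooth muscle (1842 CPM), fibroblast (2709 CPM) and endothelial (144 CPM) marker sums. The part of any of these in its *Nkd2* level was not tested. The DSS difference was -1.37 ± 0.25, or 2.58-fold lower (edgeR adjusted p = 0.000692), and -1.60 ± 0.17 without that library (edgeR adjusted p = 5.01e-06). VAA against WT under DSS was 0.79 ± 0.41 (edgeR adjusted p = 0.334) with it and 0.08 ± 0.30 (edgeR adjusted p = 0.975) without it. Of 13 tested Wnt feedback inhibitors and Dishevelled genes, 4 were called lower with DSS and none higher, against 20% and 22.5% of all genes. They were *Znrf3* (-0.83 ± 0.09) and *Rnf43* (-0.38 ± 0.08), ubiquitin ligases that remove Wnt receptors, *Axin2*, a scaffold of the β-catenin destruction complex (-0.65 ± 0.20), and *Nkd1*, the paralog of *Nkd2* (-0.65 ± 0.23). Between KO and WT under DSS, 1 of the 13 was called, against 5.67% of all genes. It was *Sfrp1*, a secreted Wnt antagonist that was lower in KO (-1.54 ± 0.26, edgeR adjusted p = 0.00788). It was also the one called between KO and VAA averaged over treatments (-1.10 ± 0.20, edgeR adjusted p = 0.0303), a call lost in 10 of 24 other fits, among them those without any one untreated KO or VAA library or without the first or the second KO library under DSS (adjusted p from 0.0633 to 0.155). The call of *Axin2* with DSS was lost without the first untreated KO library (-0.42, adjusted p = 0.0942).

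*Clptm1l* was higher in all 9 DSS libraries than in all 6 untreated libraries. The KO libraries under DSS had 106, 120 and 120 CPM, the VAA libraries 145, 131 and 120 CPM, and the WT libraries 144, 146 and 129 CPM. Untreated colon had 86.7 and 84.9 CPM in KO, 81.2 and 92.8 CPM in VAA, and 80.7 and 81.4 CPM in WT. The DSS difference was 0.60 ± 0.07, or 1.52-fold (edgeR adjusted p = 1.29e-05). Under DSS the 3 KO libraries were below the 3 WT libraries, by -0.27 ± 0.10, which did not pass (edgeR adjusted p = 0.131). Among 6 genes for its paralog and other scramblases, 3 were called higher with DSS and none lower, against 22.5% and 20% of all genes. These were the endoplasmic reticulum scramblases *Vmp1* (0.89 ± 0.10) and *Tmem41b* (0.58 ± 0.14) and the plasma membrane scramblase *Ano6* (0.41 ± 0.13). The call of *Ano6* was lost in 5 of 23 other fits, among them those without the first untreated library of WT, KO or VAA, with adjusted p up to 0.0717.

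*Trip13* and *Brd9* start close together on opposite strands, with 43 bases between the RefSeq starts and 26 between the GENCODE starts. The ratio between them was higher in all DSS libraries but the third VAA library than in any untreated library. *Trip13* had 8.76, 13.2 and 8.18 CPM in the KO libraries under DSS, 15.5, 14.4 and 3.75 CPM in the VAA libraries and 17.5, 15.1 and 13.8 CPM in the WT libraries. Untreated, it had 5.69 and 5.85 CPM in KO, 5.94 and 5.45 CPM in VAA and 6.90 and 6.60 CPM in WT. The third VAA library under DSS was below every untreated library, and the other 8 DSS libraries were above them all. The DSS difference was 0.99 ± 0.25, or 1.99-fold (edgeR adjusted p = 0.00564), and 1.13 ± 0.12 without that library (edgeR adjusted p = 6.7e-06). Under DSS the KO libraries were below the WT libraries, by -0.62 ± 0.37 (edgeR adjusted p = 0.357), a difference that was called without the third VAA library (-0.62, adjusted p = 0.0325) and not when both male libraries were left out too (-0.62, adjusted p = 0.0523).

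*Brd9* was level across the study. It had 30.3, 33.8 and 35.2 CPM in the KO libraries under DSS, 30.5, 34.7 and 25.6 CPM in the VAA libraries and 30.3, 33.5 and 31.8 CPM in the WT libraries. Untreated, it had 31.5 and 29.5 CPM in KO, 27.3 and 36.4 CPM in VAA and 31.2 and 32.3 CPM in WT. The DSS groups and the untreated groups overlapped in every genotype, and the DSS difference was 0.02 ± 0.09, with a 95% interval from -0.17 to 0.21. An antisense RNA, *Gm41002*, is annotated at the end of *Brd9*, and its reads may not be told apart. Among 11 tested subunits of the noncanonical BAF complex, 4 were called higher and 2 lower with DSS, against 22.5% and 20% of all genes. They included the ATPase subunits *Smarca4* (0.30 ± 0.06) and *Smarca2* (-0.56 ± 0.10) and the core subunit *Smarcd1* (0.50 ± 0.09).

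The ratio of *Trip13* to *Brd9* counts within a library compares the 2 genes with no scaling between libraries. It was 0.289, 0.389 and 0.233 in the KO libraries under DSS, 0.507, 0.414 and 0.146 in the VAA libraries and 0.577, 0.451 and 0.434 in the WT libraries. Untreated, it was 0.181 and 0.199 in KO, 0.218 and 0.150 in VAA and 0.221 and 0.204 in WT. All DSS libraries but the third VAA library were above all untreated libraries. The log2 ratio was 0.88 higher under DSS, averaged over genotypes, or 1.83-fold. A two-sided exact permutation test within genotypes over 1000 regroupings gave p = 0.012, where 0.001 is the smallest p they can give. Without the third VAA library under DSS the difference was 1.06 (exact p = 0.00167, the smallest possible). This ratio was chosen after the values of the 2 genes were seen. Its p-values thus belong to a picked pair and are no support apart from the *Trip13* result.

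**Figure D3:**
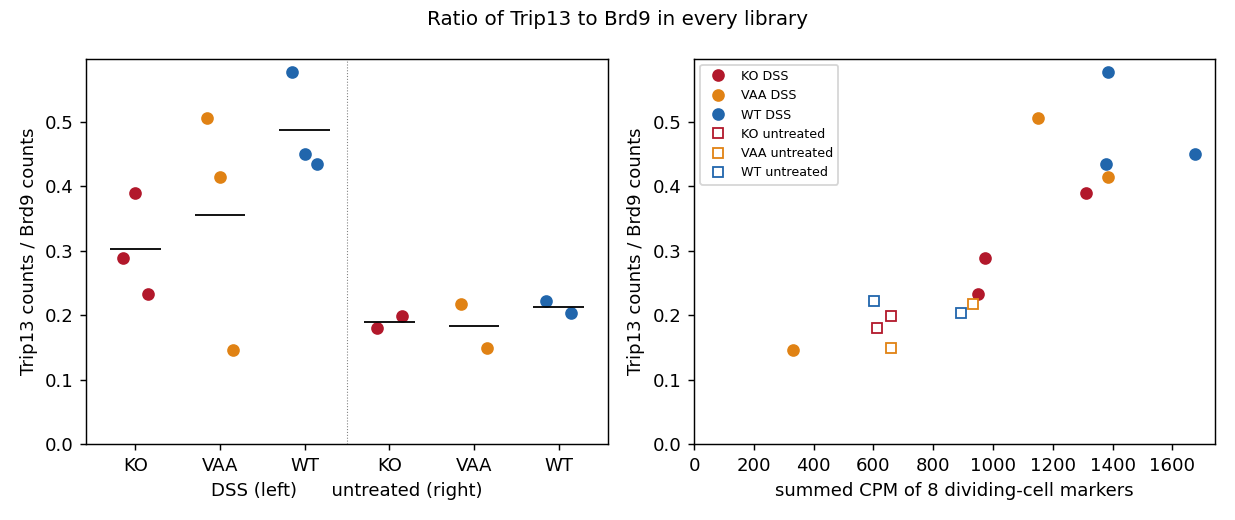
Ratio of *Trip13* to *Brd9* counts in each of the 15 libraries, by group with bars at the group means (left) and against the summed scaled CPM of 8 dividing-cell markers (right). DSS libraries with 949 or more CPM of dividing-cell markers had ratios from 0.233 to 0.577, and the third VAA library under DSS, at 331 CPM, had 0.146.

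Of 10 tested spindle checkpoint partners of *Trip13*, 7 were called higher with DSS and none lower, against 22.5% and 20% of all genes. They included *Cdc20*, the checkpoint's target and activator of the anaphase-promoting complex (1.20 ± 0.25), *Mad1l1*, which recruits Mad2 to kinetochores (0.56 ± 0.10), and *Mad2l1bp*, the adaptor that brings Mad2 to Trip13 (0.43 ± 0.10). The dividing-cell marker sum was 949 to 1312 CPM in KO, 331 to 1386 CPM in VAA and 1377 to 1677 CPM in WT under DSS, and 611 to 658 CPM in KO, 659 to 934 CPM in VAA and 603 to 893 CPM in WT untreated. *Trip13* was lowest in the library with the lowest sum, and its KO libraries under DSS were lower than its WT libraries in both. The part of dividing cells in the *Trip13* differences was not tested. TTCGAA, a form of the cell cycle homology region, was found once in the overlapping windows of *Trip13* and *Brd9*, at chr13:73937759-73937764. It lies just inside the *Trip13* transcript by the RefSeq start, and 1.56% of all promoter windows held it on either strand. The other form searched, TTTGAA, was in neither window and in 17.9% of all windows.

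*Cep72* had the smallest estimated fall of the 4 neighbours called lower with DSS. The KO libraries under DSS had 6.59, 9.14 and 6.02 CPM, the VAA libraries 4.58, 5.67 and 2.98 CPM, and the WT libraries 5.62, 5.44 and 6.67 CPM. Untreated colon had 10.3 and 6.07 CPM in KO, 8.66 and 7.33 CPM in VAA, and 7.52 and 9.22 CPM in WT. The DSS libraries were below the untreated ones in VAA and WT and overlapped with them in KO. The DSS difference was -0.51 ± 0.17, or 1.42-fold lower (edgeR adjusted p = 0.0282). The call was lost without any of 7 libraries, namely the first or second WT or the first or the third KO library under DSS, the second untreated WT, the first untreated KO or the first untreated VAA library (-0.50 to -0.36, adjusted p from 0.0501 to 0.122). Of 9 tested centriolar satellite and centrosome genes, 3 were called lower with DSS and none higher, against 20% and 22.5% of all genes. The 3 were *Cep63* (-0.51 ± 0.10), *Bbs4* (-0.48 ± 0.15) and *Kiz* (-0.37 ± 0.12). The calls of *Bbs4* and *Kiz* were each lost in 6 of 23 other fits, with adjusted p up to 0.158, among them those without the second untreated WT or KO library.

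*Zdhhc11* was scarcely detected. It had 4 counts over the 15 libraries, with 0 to 2 in any one, and no fold change is given. Of 20 tested DHHC palmitoyltransferases, 9 were called higher and 3 lower with DSS, against 22.5% and 20% of all genes. Those called higher included *Zdhhc2* (0.96 ± 0.15), *Zdhhc3* (0.38 ± 0.06) and *Zdhhc21* (0.46 ± 0.07). Between KO and WT under DSS, 1 of the 20 was called, *Zdhhc21*, lower in KO (-0.46 ± 0.11, edgeR adjusted p = 0.0359), a call lost in 10 of 24 other fits (adjusted p from 0.0508 to 0.188). These were the fits without any one untreated WT or VAA library, any one KO library under DSS, the first or the second WT library under DSS, or both male libraries. Over the 9 partner lists, edgeR called no gene in KO against WT or in VAA against WT averaged over treatments, and 1 gene in each of 4 lists in KO against WT under DSS, where 5.67% of all genes were called.

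**Figure D4:**
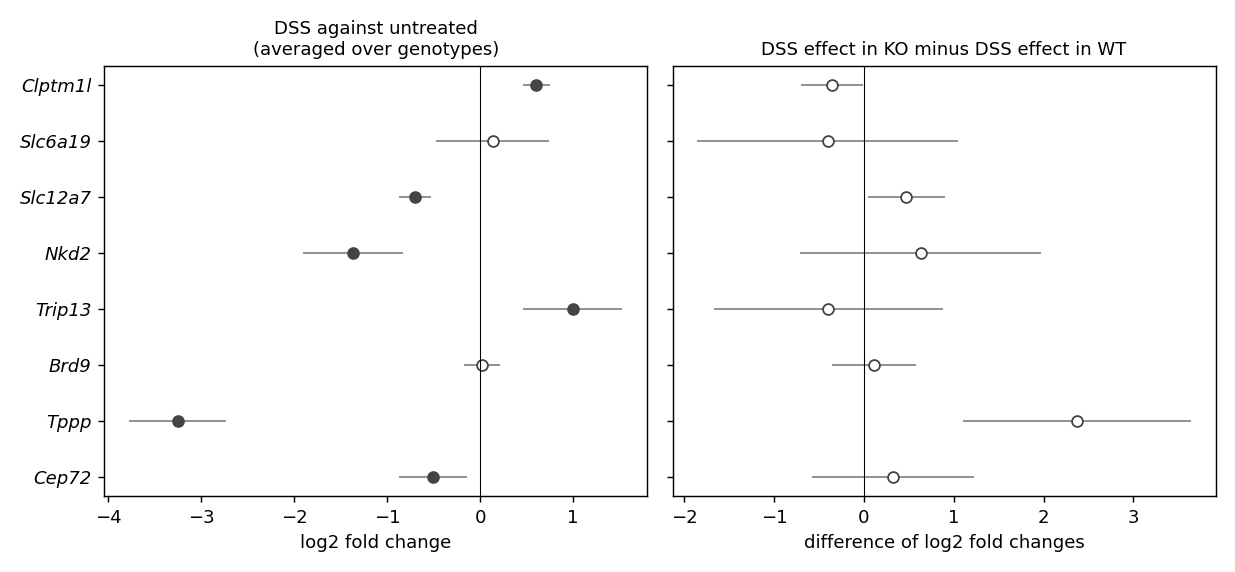
Log2 fold change of DSS against untreated averaged over genotypes (left) and the DSS effect in KO minus that in WT (right) for the 8 tested neighbours, with 95% intervals and filled points where the edgeR adjusted p is under 0.05. *Tppp* is lowest on the left at -3.25 and highest on the right at 2.37, and no point on the right is filled.

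Other genes near *Tert* were set beside the neighbours by distance on the chromosome. In KO against WT and in VAA against WT averaged over treatments, edgeR called none of the 14 tested genes within 0.5 Mb, the 13 from 0.5 to 2 Mb, the 75 from 2 to 10 Mb or the 525 farther away, *Tert* left out. At an unadjusted p under 0.05 there were 2, 1, 2 and 62 genes in KO against WT and 0, 2, 3 and 13 in VAA against WT. In KO against WT these were 14.3%, 7.69%, 2.67% and 11.8%, against 11.3% of all genes. In VAA against WT they were 0%, 15.4%, 4% and 2.48%, against 3.35% of all genes. Under DSS, KO against WT had 3 called genes of the 14 within 0.5 Mb, none of the 13, 1 of the 75 and 29 of the 525, or 5.52%, against 5.67% of all genes. Beside *Tppp* and *Slc12a7*, the called gene of the 14 was *Slc9a3*, the sodium proton exchanger NHE3 of the epithelial brush border, 471.6 kb from *Tert*.

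*Slc9a3* varied widely within groups. It had 8.53, 9.35 and 14.0 CPM in the KO libraries under DSS, 34.5, 23.5 and 16.9 CPM in the VAA libraries and 23.0, 59.3 and 92.4 CPM in the WT libraries. Untreated, it had 79.0 and 15.4 CPM in KO, 26.4 and 6.56 CPM in VAA and 6.22 and 11.8 CPM in WT. Under DSS the 3 KO libraries were below all 6 others, and untreated both KO libraries were above both WT libraries, with the VAA libraries overlapping each. KO against WT under DSS was -2.45 ± 0.65 (edgeR adjusted p = 0.0449). That call was lost in 8 of 24 other fits, among them those without any one KO library under DSS, without the second or the third WT library under DSS, or without either untreated WT library (-2.71 to -1.95, adjusted p from 0.0603 to 0.172). The interaction of KO with DSS was -4.84 (edgeR adjusted p = 0.227), and DESeq2 gave it an adjusted p of 0.00831.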

How the data were processed

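Colon RNA was sequenced as paired 76-base reads from Illumina TruSeq Total RNA libraries, per the labels. The deposited table holds an estimated count for each gene symbol, which the submitters' processing notes tie to kallisto 0.46 and mm10. Which transcripts were summed, and whether strand was used, is not stated in these sources. All counts were whole, so rounding changed none. A second table deposited by the authors holds log2 CPM of 17531 genes, which were recomputed from the counts within 0.0182 at a prior count of 2.

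The test was edgeR 4.0.16 in R 4.3.3. Of 32544 genes, 8053 were at 0 in all libraries and 17477 passed the expression filter (minimum count 10). One mean per group was fitted over 15 libraries, with trimmed mean of M values scaling, a common dispersion of 0.0457, 9 residual and 4.31 prior degrees of freedom, and 10 contrasts were tested. Groups came from the sample titles. Chi-square per degree of freedom between replicates ran from 11.59 to 112, so no pair of libraries agreed within sampling noise. In data simulated for KO against WT averaged over treatments on 17477 genes, the test called 3 genes that had no change. It recovered 15 of 50 genes changed 1.5-fold, 39 of 50 changed 2-fold, 49 of 50 changed 4-fold and 50 of 50 changed 8-fold. The simulated counts had the fitted dispersion, no DSS effect and no library that stood apart. Recovery in the real data, where 4 genes were called in this comparison, may be lower.

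Positions came from GENCODE release 21 for mouse and promoter windows from RefSeq GRCm38.p6. Alternatives were DESeq2 1.42.0 size factors, no expression filter, the DESeq2 test, limma 3.58.1 on the deposited log2 values, a fit restricted to the groups of a comparison, a block for the replicate number, a covariate for sex (from *Ddx3y*), and leaving out each library. Chosen after seeing the data were fits without both male libraries, with or without the third VAA library under DSS, and the *Trip13* to *Brd9* ratio. The members, lists and tests were chosen with earlier results of these data known. Genes named were *Tert*, the 9 members, other genes within 0.5 Mb, and in DSS against untreated up to 3 called genes per partner list by smallest p; *Nkd1*, *Sfrp1*, *Dcn* and *Fabp6*, and the *Tppp3* and *Zdhhc21* results in KO against WT under DSS, were added after their values were seen. Some genes that this rule selects are not reported here. No gene up to 2 Mb was called in KO or VAA against WT averaged over treatments.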

Additional observations from a re-analysis of the deposited data

How the results depend on the processing

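No called value was reversed in any of the 24 other fits of a comparison (23 for DSS against untreated, which uses all groups). Over the tested neighbours, 1885 of 1909 gene results kept their side of the threshold, 12 lost a call and 12 gained one. Over 36 other genes, 2118 of 2220 did so, with 93 lost and 9 gained. Results called in neither fit count as kept even where their direction changed. *Nkd2* in KO against WT averaged over treatments, for example, went from -0.09 to 0.04 without both male libraries.

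The count of called neighbours in KO against WT averaged over treatments was 0; it was 2 with DESeq2, 1 when only the compared groups were fitted (*Slc12a7*) and 0 to 1 with a library left out. In KO against VAA averaged it was 0; it was 1 without an expression filter (*Tppp*, 1.19), 2 with DESeq2, 1 with the replicate number as a block (*Tppp*, 1.12, adjusted p = 0.049) and 0 to 2 with a library left out. In KO against WT under DSS it was 2, and 0 to 3 with a library left out. In the interaction of KO with DSS it was 0, and 1 with DESeq2. In DSS against untreated it was 6, and 5 or 6 in other fits. In the 4 comparisons of VAA with WT it was 0 throughout. The causes were not tested.

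Counts of all genes called moved more. KO against WT averaged gave 4, but 308 with DESeq2, 30 with limma, 286 with only the groups compared and 0 to 335 with a library left out. KO against WT under DSS gave 991, but 1751 with DESeq2, 2766 with only the groups compared, 531 without male libraries and 121 to 2704 with a library left out. KO against VAA averaged gave 252, and 0 to 1181 in other fits; the interaction of KO with DSS 0, and up to 136; VAA against WT under DSS 1, and up to 848.

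Equal replicate numbers are not said to share a litter or day. Over 33 pairs the correlation of residuals ran from -0.159 to 0.312, with 8 over 0.1, and 7 of 15 libraries were closest to their own number. With the replicate number as a block the call of *Cep72* in DSS against untreated was lost (-0.43, adjusted p = 0.0936), as were those of *Axin2* and *Ano6*. The untreated groups of 2 and the low counts of *Slc6a19*, *Trip13*, *Nkd2* and *Cep72* limit what differences could be detected.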
